A study of Rattus norvegicus with 22 samples.

Results

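The genes described here encode splicing factors and hnRNP proteins of the rat: the SR proteins (symbols beginning Srsf), the heterogeneous nuclear ribonucleoproteins (Hnrnp), the Sm and other snRNP proteins (Snrp), the SF3A and SF3B subunits, the Prpf proteins and the U2af proteins, with Snrpn left out. They were found by the RefSeq symbol of each probe's accession, with the brightest probe that had a value on every array, called the chosen probe, standing for the gene. Srsf3 has a brighter probe that lacked a value on 1 array, and its values are given beside those of the chosen probe. The rule found 76 probes for 55 genes, among 30367 probes for 26875 genes or unnamed accessions measured on every array. Of the 55 genes, 10 encode SR proteins, 16 hnRNPs, 7 Snrp proteins, 8 SF3A or SF3B subunits, 12 Prpf proteins and 2 U2af proteins. RefSeq lists 74 protein-coding rat genes that fit the rule, and those without a matching probe, among them Hnrnpc, Snrpe and U2af2, were not analysed here.

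RNA came from 2 germ cell types of male rats, separated by sedimentation at unit gravity. Round spermatids, the haploid cells after meiosis, were measured in 6 samples from rats given cyclophosphamide and 6 from rats given saline. Pachytene spermatocytes, cells in meiotic prophase, were measured in 5 samples from rats given cyclophosphamide and 5 from rats given saline. Cyclophosphamide, an alkylating anticancer drug, was given by gavage at 6 mg/kg on 6 days per week for 4 weeks, and saline on the same schedule. No group carried a genetic change per the labels, and strain and age are not given in the sources used here. Each sample was hybridised to 1 one-colour Agilent array. The labels number the samples, and 2 of the 5 pachytene samples given cyclophosphamide carry the same number with different suffixes and were counted as 2 samples. Without either of them 46 or 47 of the genes passed between the cell types after cyclophosphamide. The labels do not say that each number is a separate rat, or that a number shared between cell types is the same rat, so the p-values measure the spread between these samples, which may be in part technical. The purity of the preparations is not given in the sources used here.

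Pre-mRNA splicing removes introns in the spliceosome, a machine built from small nuclear RNAs with their Sm proteins. U2AF and SF3A/SF3B mark the end and branch point of the intron, the Prpf proteins join with the U4/U6.U5 particle or remodel it, and SR proteins and hnRNPs bind the transcript and steer the choice of splice sites. Pachytene spermatocytes transcribe broadly and use many testis-specific exons, while spermatids store transcripts for use after transcription stops.

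Arrays had a 75th percentile of 1070 to 2425 intensity units. From 65.3% to 76.4% of probes stood clear of background, with no saturated spot. All 22 arrays entered, with correlations of 0.971 to 0.991 inside a group. The 13 measured round spermatid markers were all higher in round spermatids under both treatments, and their summed level was 657 to 1091 times an array's 75th percentile after cyclophosphamide and 641 to 1021 times after saline, against 161 to 334 and 174 to 431 times in pachytene spermatocytes. Of 13 pachytene markers, 12 were lower in round spermatids after cyclophosphamide and 10 after saline, and Ccna1 was higher. Markers of other cells also differed between the preparations. The summed level of 10 Sertoli cell markers was 2.35 to 7.18 in round spermatid samples and 23.1 to 41.6 in pachytene samples. Of these 10, 8 were lower in round spermatids under both treatments, Wt1 was higher by 2.30-fold after cyclophosphamide and 2.18-fold after saline, and Amh did not pass. That of 10 macrophage and leukocyte markers was 4.01 to 12.2 in round spermatid samples and 0.52 to 1.32 in pachytene samples, where no array had Ptprc well above background. Of tested markers, 7 of 7 Leydig cell markers were lower and 6 of 7 myoid cell markers higher in round spermatids under both treatments, and of 8 spermatogonial markers 5 were higher after cyclophosphamide and 4 after saline. Their part in the differences below was not tested.

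Most splicing factor transcripts were lower in round spermatids than in pachytene spermatocytes. After cyclophosphamide, 40 of the 55 genes were lower, 7 were higher and 8 did not pass the test. After saline, 38 were lower, 9 were higher and 8 did not pass. Both counts of lower genes include Snrpf, which was below background in round spermatids. On the chosen probes, Hnrnpf and Srsf5 showed the largest falls, and Sf3b4 and Srsf1 the largest rises, although the other Srsf1 probe fell. The test was limma on log2 values with Benjamini-Hochberg adjustment over all tested genes at 0.05. Over all genes tested, 79.1% passed after cyclophosphamide (38.8% higher, 40.3% lower) and 75.2% after saline (38.2% higher, 37% lower). The median log2 difference, round spermatids minus pachytene spermatocytes, was -1.09 for the 55 genes after cyclophosphamide, against -0.02 for all tested genes. After saline it was -0.84, against 0.01 for all tested genes. These are amounts relative to other transcripts on the same array, and in such bulk samples fewer cells of a type and less RNA per cell cannot be told apart.

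The comparison in cyclophosphamide rats and that in saline rats use different arrays. In both of them, 38 of the 55 genes (69.1%) were lower and 7 (12.7%) higher. Among the 19090 genes tested in both, 36.4% were lower in both and 36.0% higher in both, and no gene passed in opposite directions. Differences beyond 2-fold were reached by 28 lower and 3 higher genes after cyclophosphamide, where 24.3% and 27% of all tested genes did so. After saline the counts were 25 lower and 2 higher, against 20.6% and 25.2% of all tested genes. Every count of higher genes here, also those without overlap, includes Srsf1 on its chosen probe, although its other probe fell. The counts use measured values, and every count of lower genes here, also those without overlap, includes Snrpf, which was below background in round spermatids. Its difference is bounded only as at least 1.57-fold after cyclophosphamide and 1.92-fold after saline. The lowest and highest arrays did not overlap between cell types for 38 lower and 7 higher genes after cyclophosphamide (34.5% and 32.4% of all tested genes), and for 34 lower and 6 higher after saline (28.3% and 28.6%). Arrays of both cell types lay on 2 of the 4 slides. On each of these slides 1 pachytene array of each treatment met 3 round spermatid arrays, so only effect sizes are given. Within slide 1 the median log2 difference of the 55 genes was -0.94 after cyclophosphamide and -0.74 after saline. Within slide 2 it was -1.15 and -0.99. The spread between pachytene samples of a treatment cannot be estimated within these slides.

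**Figure D1:**
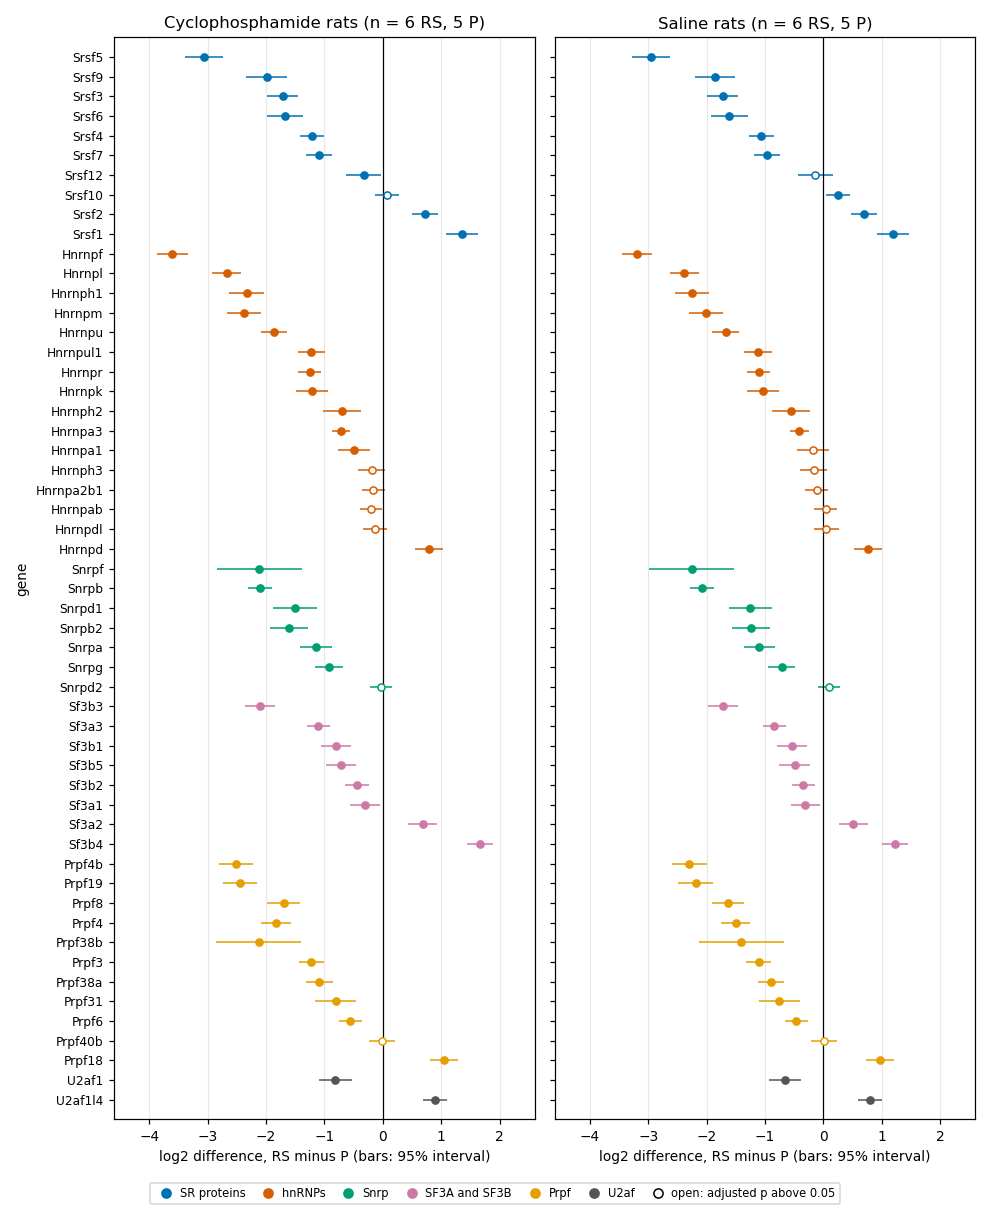
Log2 difference, round spermatids (RS) minus pachytene spermatocytes (P), of the genes, 1 of the 55 left out, in cyclophosphamide rats (left) and saline rats (right). Points are limma estimates, bars 95% intervals, filled points passed an adjusted p of 0.05, colours give the family. Hnrnpf stands farthest left at -3.60 and -3.20, and Sf3b4 farthest right at 1.67 and 1.23.

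Since the results turn on the genes that moved most, the promoters of the 3 that fell and the 3 that rose most in saline rats, by measured difference on the chosen probes and among those above background in both cell types, are shown. For Srsf1, shown as a rise, the 2 probes had opposite directions and the direction for the gene is not settled. Each holds 300 bases around the RefSeq transcript start, most of them upstream, in build GRCr8 on the plus strand. Hnrnpf lies at chr4:152755418-152755717, Srsf5 at chr6:106336506-106336805 and Hnrnpl at chr1:93228151-93228450. Sf3b4 lies at chr2:186421417-186421716, Srsf1 at chr10:73336248-73336547 and Prpf18 at chr17:78539640-78539939. Capitals mark, on either strand, the CRE half-site TGACG, the CCAAT box, the MYB motif TAACNG and the TATA box TATAAA.
Hnrnpf: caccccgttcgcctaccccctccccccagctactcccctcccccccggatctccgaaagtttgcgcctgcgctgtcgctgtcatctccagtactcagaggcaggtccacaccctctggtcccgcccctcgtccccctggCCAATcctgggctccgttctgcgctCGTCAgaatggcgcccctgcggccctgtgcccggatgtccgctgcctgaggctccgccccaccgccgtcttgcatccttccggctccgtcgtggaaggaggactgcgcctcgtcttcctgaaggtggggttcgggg
Srsf5: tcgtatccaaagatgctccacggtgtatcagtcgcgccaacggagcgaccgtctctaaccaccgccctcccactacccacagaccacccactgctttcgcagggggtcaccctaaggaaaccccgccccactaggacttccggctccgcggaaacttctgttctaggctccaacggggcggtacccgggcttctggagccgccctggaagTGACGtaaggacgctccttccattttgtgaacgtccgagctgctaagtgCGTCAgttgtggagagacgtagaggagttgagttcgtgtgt
Hnrnpl: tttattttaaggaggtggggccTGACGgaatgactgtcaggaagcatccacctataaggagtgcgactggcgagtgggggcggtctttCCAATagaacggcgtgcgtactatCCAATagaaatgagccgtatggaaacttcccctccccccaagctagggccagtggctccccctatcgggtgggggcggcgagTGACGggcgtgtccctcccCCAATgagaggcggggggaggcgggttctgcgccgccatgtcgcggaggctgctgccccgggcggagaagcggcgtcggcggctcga
Sf3b4: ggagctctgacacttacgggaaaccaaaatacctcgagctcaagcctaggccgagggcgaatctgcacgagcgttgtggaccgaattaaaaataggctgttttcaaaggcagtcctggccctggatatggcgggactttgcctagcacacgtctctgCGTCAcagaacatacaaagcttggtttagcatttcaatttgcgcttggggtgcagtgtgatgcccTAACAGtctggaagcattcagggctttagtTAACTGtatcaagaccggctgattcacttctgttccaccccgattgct
Srsf1: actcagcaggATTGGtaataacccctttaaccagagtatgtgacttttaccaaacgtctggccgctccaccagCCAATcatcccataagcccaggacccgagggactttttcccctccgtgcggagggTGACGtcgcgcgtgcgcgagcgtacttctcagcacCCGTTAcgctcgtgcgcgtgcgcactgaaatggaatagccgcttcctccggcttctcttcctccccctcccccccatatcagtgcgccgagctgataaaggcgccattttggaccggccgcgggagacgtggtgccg
Prpf18: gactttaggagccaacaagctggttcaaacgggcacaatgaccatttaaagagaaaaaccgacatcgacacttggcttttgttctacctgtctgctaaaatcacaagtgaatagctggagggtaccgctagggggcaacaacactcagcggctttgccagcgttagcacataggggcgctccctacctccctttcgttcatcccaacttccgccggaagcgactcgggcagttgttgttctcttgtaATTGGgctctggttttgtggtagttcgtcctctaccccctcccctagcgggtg
None of the 6 holds TATAAA or the full CRE TGACGTCA, which contains the half-site. The GC box GGGCGG, which was searched on both strands and is not capitalised, occurs 2 times in Hnrnpf, 4 times in Srsf5, 3 times in Hnrnpl and in none of the Sf3b4, Srsf1 and Prpf18 promoters. Promoters of 53 of the 55 genes were in the table. TGACG was found in 26 of them (49.1%), against 23.5% of 21851 protein-coding promoters of the same length. CCAAT was found in 30 (56.6%, against 38.0%), GGGCGG in 31 (58.5%, against 41.8%), TAACNG in 15 (28.3%, against 21.99%) and TATAAA in 6 (11.3%, against 13.0%). The half-site was in 18 of the 37 promoters of genes lower in both comparisons and in 3 of the 7 of genes higher in both, on the chosen probes. These counts describe letters in the windows and no binding was measured.

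SR proteins bind exonic enhancers through RNA recognition motifs and recruit the splicing machinery. Of 10, 7 were lower and 2 higher in round spermatids after cyclophosphamide, and 6 were lower and 3 higher after saline. The shares to set beside this and each later family are those of all tested genes. They were 40.3% lower and 38.8% higher after cyclophosphamide, and 37% lower and 38.2% higher after saline. The levels that follow are log2 values relative to the array's 75th percentile, given as the lowest, the median and the highest of 6 round spermatid samples and as all 5 values of pachytene samples. Srsf5 in round spermatids had -0.37, -0.25 and 0.00 in cyclophosphamide rats and -0.88, -0.46 and 0.18 in saline rats. Srsf5 in pachytene spermatocytes had 2.55, 2.76, 2.80, 2.93 and 3.06 in cyclophosphamide rats and 2.29, 2.59, 2.598, 2.598 and 2.64 in saline rats. The cell types did not overlap under either treatment, and Srsf5, a classical SR protein, was lower in round spermatids by 8.37-fold (95% interval 6.68 to 10.5) after cyclophosphamide and 7.73-fold (95% interval 6.16 to 9.68) after saline (limma, adjusted p = 1.22e-13 and 5.62e-13).

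Srsf9 in round spermatids had -2.18, -2.06 and -1.83 in cyclophosphamide rats and -2.10, -1.94 and -1.50 in saline rats. Srsf9 in pachytene spermatocytes had -0.42, -0.13, -0.03, 0.11 and 0.25 in cyclophosphamide rats and -0.45, -0.36, -0.17, 0.27 and 0.60 in saline rats. Srsf9, a short SR protein, was lower without overlap, by 3.97-fold (95% interval 3.12 to 5.05) after cyclophosphamide and 3.61-fold (95% interval 2.84 to 4.59) after saline (limma, adjusted p = 2.42e-10 and 1.1e-09). Srsf3 in round spermatids had -4.68, -4.38 and -4.12 in cyclophosphamide rats and -4.47, -4.36 and -4.30 in saline rats. Srsf3 in pachytene spermatocytes had -2.95, -2.73, -2.61, -2.56 and -2.56 in cyclophosphamide rats and -3.05, -2.96, -2.55, -2.38 and -2.32 in saline rats. Srsf3, the smallest of the classical SR proteins, was lower without overlap, by 3.28-fold (95% interval 2.72 to 3.95) after cyclophosphamide and 3.3-fold (95% interval 2.74 to 3.98) after saline (limma, adjusted p = 3.93e-11 and 6.13e-11). The brighter Srsf3 probe, A_44_P714409, was not tested because 1 saline pachytene array had no value. It averaged -1.96 in round spermatids after cyclophosphamide, against 1.48 in pachytene spermatocytes, and -1.799 after saline, against 1.282 over the pachytene arrays with a value. That difference is in the same direction and larger than on the chosen probe. Srsf6, Srsf4 and Srsf7 also passed in both comparisons without overlap, with log2 differences of -1.67, -1.22 and -1.09 after cyclophosphamide and -1.61, -1.06 and -0.96 after saline.

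Srsf1, the founding SR protein, went the other way on its chosen probe. Srsf1 in round spermatids had -0.17, -0.07 and 0.54 in cyclophosphamide rats and -0.32, -0.13 and 0.08 in saline rats. Srsf1 in pachytene spermatocytes had -1.44, -1.34, -1.305, -1.24 and -1.17 in cyclophosphamide rats and -1.52, -1.41, -1.40, -1.21 and -0.97 in saline rats. Every round spermatid array was above every pachytene array, a rise of 2.55-fold (95% interval 2.11 to 3.08) after cyclophosphamide and 2.29-fold (95% interval 1.89 to 2.77) after saline (limma, adjusted p = 2.95e-09 and 2.77e-08). The other Srsf1 probe gave the opposite direction, as its values further on show. Srsf2 in round spermatids had 1.25, 1.75 and 1.82 in cyclophosphamide rats and 1.47, 1.69 and 1.78 in saline rats. Srsf2 in pachytene spermatocytes had 0.70, 0.87, 0.95, 1.04 and 1.05 in cyclophosphamide rats and 0.88, 0.93, 0.95, 0.998 and 1.03 in saline rats. Srsf2, an SR protein of nuclear speckles, was higher without overlap, by 1.66-fold (95% interval 1.42 to 1.93) after cyclophosphamide and 1.62-fold (95% interval 1.39 to 1.88) after saline (limma, adjusted p = 1.51e-06 and 3.49e-06). Srsf10, which represses splicing when dephosphorylated, passed after saline at 0.25 and did not after cyclophosphamide at 0.07. Srsf12, its close relative, passed after cyclophosphamide at -0.32 and did not after saline at -0.14. Neither gene passed the test of the difference between the treatments' cell type contrasts, with adjusted p-values of 0.711 and 0.781 (limma).

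The hnRNPs coat nascent transcripts and often oppose SR proteins. Of 16, 11 were lower and 1 higher after cyclophosphamide, and 10 were lower and 1 higher after saline. Hnrnpf in round spermatids had -1.25, -1.11 and -1.04 in cyclophosphamide rats and -1.20, -0.96 and -0.36 in saline rats. Hnrnpf in pachytene spermatocytes had 2.39, 2.41, 2.46, 2.47 and 2.64 in cyclophosphamide rats and 2.17, 2.20, 2.27, 2.32 and 2.599 in saline rats. The cell types were separated by a wide gap, and Hnrnpf, which binds G-rich stretches, was lower in round spermatids by 12.1-fold (95% interval 10.1 to 14.5) after cyclophosphamide and 9.16-fold (95% interval 7.65 to 11) after saline (limma, adjusted p = 5.99e-16 and 6.67e-15). Hnrnpl in round spermatids had 0.45, 0.62 and 0.98 in cyclophosphamide rats and 0.48, 0.80 and 0.96 in saline rats. Hnrnpl in pachytene spermatocytes had 3.21, 3.23, 3.33, 3.45 and 3.48 in cyclophosphamide rats and 2.83, 3.04, 3.13, 3.34 and 3.41 in saline rats. Hnrnpl, a binder of CA repeats, was lower without overlap, by 6.39-fold (95% interval 5.38 to 7.58) after cyclophosphamide and 5.2-fold (95% interval 4.38 to 6.17) after saline (limma, adjusted p = 2.18e-14 and 2.34e-13).

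Hnrnph1 in round spermatids had 0.85, 1.09 and 1.38 in cyclophosphamide rats and 0.67, 0.82 and 1.44 in saline rats. Hnrnph1 in pachytene spermatocytes had 3.33, 3.40, 3.48, 3.52 and 3.54 in cyclophosphamide rats and 3.003, 3.19, 3.21, 3.27 and 3.41 in saline rats. Hnrnph1, a relative of Hnrnpf that also binds G-rich stretches, was lower without overlap, by 5.04-fold (95% interval 4.1 to 6.18) after cyclophosphamide and 4.74-fold (95% interval 3.87 to 5.82) after saline (limma, adjusted p = 1.27e-12 and 5.96e-12). Hnrnpm, Hnrnpu, Hnrnpul1, Hnrnpr and Hnrnpk also passed in both, with saline log2 differences of -2.02, -1.67, -1.12, -1.11 and -1.03.

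Hnrnpd, also known as AUF1, binds AU-rich elements that govern mRNA decay. It was the hnRNP whose chosen probe rose in both comparisons. Hnrnpd in round spermatids had 0.65, 1.01 and 1.41 in cyclophosphamide rats and 0.88, 1.05 and 1.22 in saline rats. Hnrnpd in pachytene spermatocytes had 0.12, 0.15, 0.23, 0.28 and 0.35 in cyclophosphamide rats and 0.08, 0.17, 0.22, 0.46 and 0.50 in saline rats. Hnrnpd was higher without overlap, by 1.73-fold (95% interval 1.46 to 2.05) after cyclophosphamide and 1.7-fold (95% interval 1.44 to 2.01) after saline (limma, adjusted p = 1.9e-06 and 3.47e-06). On the chosen probes Hnrnpa2b1, Hnrnph3, Hnrnpab and Hnrnpdl did not pass in either comparison, and their log2 differences lay between -0.20 and 0.05. The other Hnrnpab probe rose in both, by 0.89 after cyclophosphamide and 0.79 after saline (limma, adjusted p = 2.13e-09 and 1.89e-08). Hnrnpa1, which often represses exon inclusion, passed on its chosen probe after cyclophosphamide at -0.50 and did not after saline at -0.18. The other Hnrnpa1 probe had the opposite sign and did not pass, at 0.12 and 0.20 (limma, adjusted p = 0.416 and 0.172). RefSeq names 51 pseudogenes of Hnrnpa1, and 25 of the 55 genes have at least 1 named pseudogene, so signal from near-identical copies is uncertain for these.

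The Snrp proteins include the Sm ring, which is assembled around spliceosomal small nuclear RNAs. Of 7, 6 were lower in both comparisons, and Snrpd2, an Sm protein, did not pass in either, at -0.02 and 0.10. The 6 include Snrpf, whose round spermatid values were below background. Snrpb in round spermatids had -0.12, -0.04 and 0.04 in cyclophosphamide rats and -0.05, 0.03 and 0.28 in saline rats. Snrpb in pachytene spermatocytes had 1.93, 1.94, 2.08, 2.16 and 2.21 in cyclophosphamide rats and 1.97, 1.98, 2.09, 2.37 and 2.38 in saline rats. The cell types stood well apart, with Snrpb, which gives the SmB proteins, lower in round spermatids by 4.3-fold (95% interval 3.73 to 4.97) after cyclophosphamide and 4.23-fold (95% interval 3.67 to 4.88) after saline (limma, adjusted p = 4.45e-14 and 1.29e-13). Snrpd1 in round spermatids had -0.99, -0.18 and 0.14 in cyclophosphamide rats and -0.77, -0.14 and 0.02 in saline rats. Snrpd1 in pachytene spermatocytes had 1.09, 1.15, 1.17, 1.38 and 1.44 in cyclophosphamide rats and 0.75, 0.83, 1.03, 1.24 and 1.25 in saline rats. Snrpd1, another Sm protein, was lower without overlap, by 2.83-fold (95% interval 2.19 to 3.67) after cyclophosphamide and 2.38-fold (95% interval 1.84 to 3.08) after saline (limma, adjusted p = 8.55e-08 and 1.58e-06).

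Snrpf, a further Sm protein, was not well above background on any of the 12 round spermatid arrays and was above it on 4 of 5 arrays of each pachytene group. Snrpf in round spermatids had -8.16, -7.62 and -7.08 in cyclophosphamide rats and -8.19, -7.39 and -7.01 in saline rats. Snrpf in pachytene spermatocytes had -6.19, -5.75, -5.62, -5.61 and -4.47 in cyclophosphamide rats and -6.14, -5.91, -5.27, -5.10 and -3.87 in saline rats. Its measured means in round spermatids were -7.64 after cyclophosphamide and -7.51 after saline, against -5.53 and -5.26 in pachytene spermatocytes. Against the lowest signal among probes well above background, the means bound Snrpf as at least 1.57-fold higher in pachytene spermatocytes after cyclophosphamide and at least 1.92-fold higher after saline. The bounds were not tested. Snrpf is counted as lower because the measured differences passed limma. They use the values below background, so no p-value is given for them.

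SF3A and SF3B form the grip of the U2 particle on the branch point. Of 8 subunits, 6 were lower and 2 higher in both comparisons. Sf3b3 in round spermatids had -1.87, -1.70 and -1.39 in cyclophosphamide rats and -1.85, -1.58 and -1.19 in saline rats. Sf3b3 in pachytene spermatocytes had 0.29, 0.35, 0.37, 0.39 and 0.58 in cyclophosphamide rats and -0.09, 0.00, 0.29, 0.33 and 0.42 in saline rats. Sf3b3, a large scaffold subunit, was lower without overlap, by 4.27-fold (95% interval 3.57 to 5.1) after cyclophosphamide and 3.3-fold (95% interval 2.76 to 3.94) after saline (limma, adjusted p = 8.29e-13 and 3.35e-11). Sf3a3 in round spermatids had 1.58, 1.89 and 2.11 in cyclophosphamide rats and 1.75, 2.02 and 2.06 in saline rats. Sf3a3 in pachytene spermatocytes had 2.90, 2.93, 2.93, 2.95 and 3.17 in cyclophosphamide rats and 2.75, 2.76, 2.85, 2.86 and 2.89 in saline rats. Sf3a3, an SF3A subunit, was lower without overlap, by 2.15-fold (95% interval 1.87 to 2.47) after cyclophosphamide and 1.79-fold (95% interval 1.56 to 2.05) after saline (limma, adjusted p = 4.71e-10 and 5.24e-08). Sf3b1 in round spermatids had 3.13, 3.46 and 3.71 in cyclophosphamide rats and 3.35, 3.60 and 3.81 in saline rats. Sf3b1 in pachytene spermatocytes had 4.08, 4.18, 4.21, 4.25 and 4.41 in cyclophosphamide rats and 3.97, 4.00, 4.03, 4.15 and 4.41 in saline rats. Sf3b1, the subunit that clamps the branch helix, was lower by 1.74-fold (95% interval 1.46 to 2.07) after cyclophosphamide and 1.45-fold (95% interval 1.21 to 1.73) after saline (limma, adjusted p = 3.26e-06 and 0.000455). Within slides 1 and 2, each with 1 saline pachytene array, its saline log2 difference was -0.43 and -0.59, against -0.53 over all arrays.

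Sf3b4, an RNA-binding subunit near the branch point, showed the largest rise of the 55 genes on the chosen probes in both comparisons. Sf3b4 in round spermatids had 1.02, 1.17 and 1.37 in cyclophosphamide rats and 0.77, 1.01 and 1.21 in saline rats. Sf3b4 in pachytene spermatocytes had -0.69, -0.55, -0.51, -0.50 and -0.26 in cyclophosphamide rats and -0.34, -0.30, -0.29, -0.27 and 0.08 in saline rats. No arrays overlapped, and Sf3b4 was higher in round spermatids by 3.18-fold (95% interval 2.72 to 3.71) after cyclophosphamide and 2.35-fold (95% interval 2.01 to 2.75) after saline (limma, adjusted p = 3.45e-12 and 7.2e-10). Sf3a2 in round spermatids had 3.21, 3.32 and 3.41 in cyclophosphamide rats and 2.72, 3.34 and 3.54 in saline rats. Sf3a2 in pachytene spermatocytes had 2.44, 2.51, 2.72, 2.73 and 2.75 in cyclophosphamide rats and 2.61, 2.66, 2.76, 2.80 and 2.96 in saline rats. Sf3a2, an SF3A subunit, was higher by 1.61-fold (95% interval 1.35 to 1.91) after cyclophosphamide and 1.43-fold (95% interval 1.2 to 1.7) after saline (limma, adjusted p = 2.47e-05 and 0.000632), with overlapping arrays in saline rats. Slide 1 held 1 pachytene array of each treatment. Within it the log2 difference of Sf3a2 was 0.578 after cyclophosphamide and 0.594 after saline, against 0.68 and 0.51 over all arrays. Under quantile normalization its saline difference was 0.25 with an adjusted p of 0.0686.

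**Figure D2:**
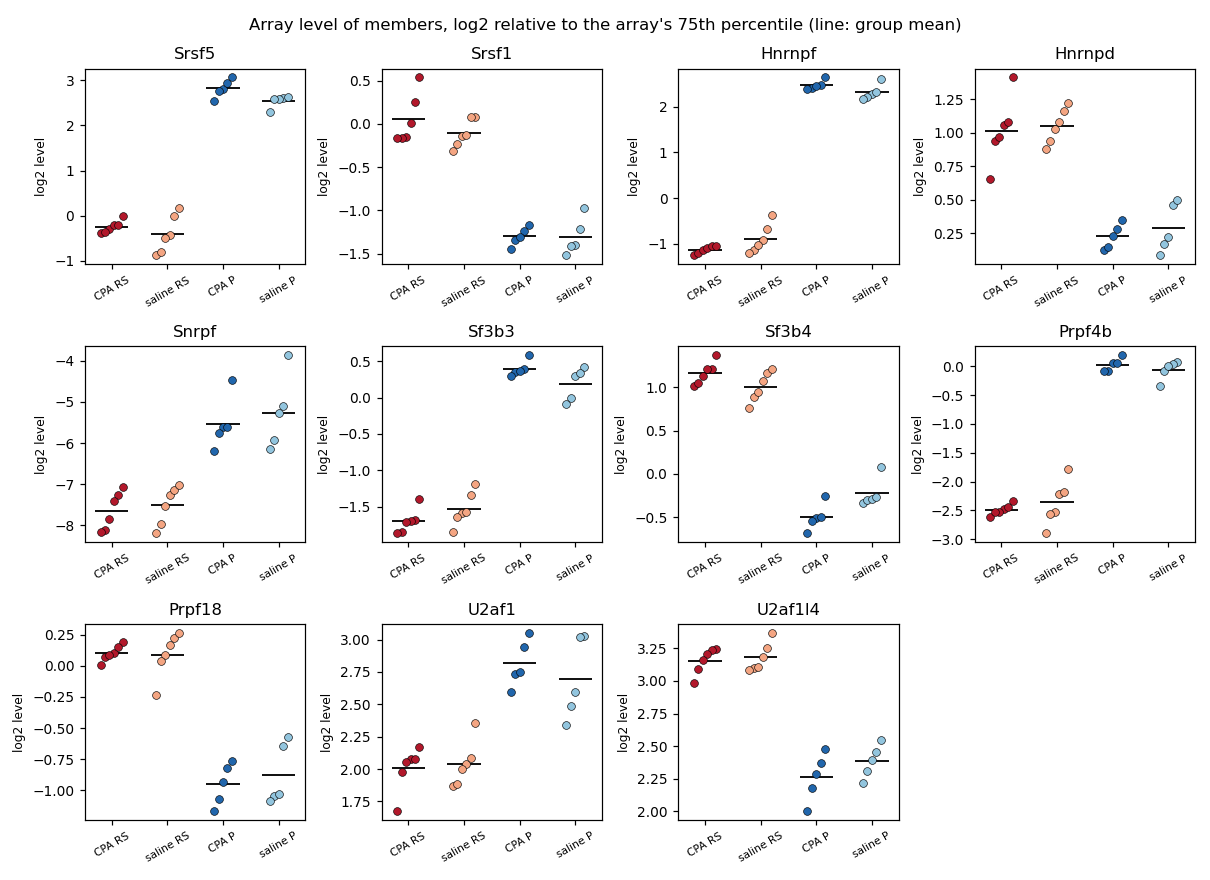
Log2 level on each array, relative to the array's 75th percentile, of the member with the largest fall and the largest rise on the chosen probes of each family in saline rats (Snrp has no rise). Points are arrays, lines group means, and groups run from cyclophosphamide (CPA) round spermatids (RS) to saline pachytene spermatocytes (P). Round spermatids and pachytene spermatocytes do not overlap under either treatment, except for U2af1 in saline rats.

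The Prpf proteins act in the U4/U6.U5 particle and in the rearrangements of the spliceosome. Of 12, 9 were lower and 1 higher after cyclophosphamide, and 9 were lower and 2 higher after saline. Prpf4b in round spermatids had -2.62, -2.50 and -2.33 in cyclophosphamide rats and -2.90, -2.37 and -1.78 in saline rats. Prpf4b in pachytene spermatocytes had -0.09, -0.08, 0.06, 0.06 and 0.19 in cyclophosphamide rats and -0.34, -0.08, 0.01, 0.04 and 0.07 in saline rats. Prpf4b, a kinase that acts on the U4/U6.U5 particle, was lower without overlap, by 5.71-fold (95% interval 4.64 to 7.01) after cyclophosphamide and 4.92-fold (95% interval 4 to 6.04) after saline (limma, adjusted p = 5.11e-13 and 4.83e-12). Prpf19 in round spermatids had -5.93, -5.37 and -5.33 in cyclophosphamide rats and -5.63, -5.45 and -4.84 in saline rats. Prpf19 in pachytene spermatocytes had -3.18, -3.07, -3.04, -3.02 and -2.79 in cyclophosphamide rats and -3.18, -3.15, -3.13, -3.12 and -3.08 in saline rats. Prpf19, the ubiquitin ligase of the complex that activates the spliceosome, was lower without overlap, by 5.46-fold (95% interval 4.46 to 6.69) after cyclophosphamide and 4.56-fold (95% interval 3.72 to 5.58) after saline (limma, adjusted p = 5.98e-13 and 7.86e-12), with 5 of 6 round spermatid arrays of each treatment well above background. Prpf8 in round spermatids had 1.22, 1.34 and 1.83 in cyclophosphamide rats and 1.16, 1.65 and 1.85 in saline rats. Prpf8 in pachytene spermatocytes had 3.02, 3.03, 3.05, 3.15 and 3.34 in cyclophosphamide rats and 3.01, 3.02, 3.16, 3.31 and 3.36 in saline rats. Prpf8, the scaffold protein of the catalytic centre, was lower without overlap, by 3.25-fold (95% interval 2.68 to 3.94) after cyclophosphamide and 3.09-fold (95% interval 2.55 to 3.75) after saline (limma, adjusted p = 8.76e-11 and 2.66e-10).

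Prpf18 in round spermatids had 0.01, 0.10 and 0.19 in cyclophosphamide rats and -0.24, 0.13 and 0.26 in saline rats. Prpf18 in pachytene spermatocytes had -1.17, -1.07, -0.93, -0.82 and -0.77 in cyclophosphamide rats and -1.09, -1.05, -1.03, -0.64 and -0.57 in saline rats. Prpf18, a factor of the final splicing step, was higher without overlap, by 2.08-fold (95% interval 1.76 to 2.45) after cyclophosphamide and 1.96-fold (95% interval 1.66 to 2.31) after saline (limma, adjusted p = 1.98e-08 and 9.49e-08). Prpf40b passed in neither comparison, at -0.01 and 0.02.

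The 2 U2af genes moved apart. U2af1 in round spermatids had 1.67, 2.06 and 2.17 in cyclophosphamide rats and 1.87, 2.02 and 2.36 in saline rats. U2af1 in pachytene spermatocytes had 2.599, 2.74, 2.75, 2.95 and 3.05 in cyclophosphamide rats and 2.34, 2.49, 2.59, 3.02 and 3.03 in saline rats. U2af1, the small subunit that reads the AG at the end of an intron, was lower by 1.75-fold (95% interval 1.44 to 2.13) after cyclophosphamide and 1.58-fold (95% interval 1.3 to 1.92) after saline (limma, adjusted p = 1.03e-05 and 0.000146), and its arrays overlapped in saline rats and not in cyclophosphamide rats. U2af1l4 in round spermatids had 2.98, 3.19 and 3.24 in cyclophosphamide rats and 3.09, 3.14 and 3.36 in saline rats. U2af1l4 in pachytene spermatocytes had 2.001, 2.18, 2.29, 2.37 and 2.48 in cyclophosphamide rats and 2.22, 2.31, 2.39, 2.45 and 2.55 in saline rats. U2af1l4, a paralogue of U2af1, was higher without overlap, by 1.85-fold (95% interval 1.61 to 2.13) after cyclophosphamide and 1.74-fold (95% interval 1.51 to 2) after saline (limma, adjusted p = 1.87e-08 and 1.27e-07).

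Of the 55 genes, 18 had further probes, 21 in all. In saline rats 15 of the 21 passed in the direction of the chosen probe, 1 passed in the opposite direction, 1 passed where the chosen one did not, 3 did not pass and 1 was not tested. Where the chosen probe passed, 15 of 17 other probes of the set passed in the same direction and 1 of 17 in the opposite one. Over all named genes 70.1% and 13.6% of 1518 did. The 15 include the other Sf3b1 probe, which was not well above background on any round spermatid array. Where probes of 1 gene differ, the change of their ratio on each array can be tested with an exact permutation test over arrays, a comparison chosen after the values were seen. Over 40 such tests, 20 probes in each treatment, the smallest exact p possible was 0.004329, or 0.0115 after Benjamini-Hochberg adjustment. In both treatments and with the same sign, 6 probes with a measured ratio reached it: those of Srsf1, Sf3a1, Hnrnph1, Hnrnpk, Hnrnpab and 1 of Hnrnpa3.

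For Srsf1, probe A_44_P1043081 carries the same RefSeq accession as the chosen probe, A_64_P104194. It had -2.16, -1.89 and -1.53 in cyclophosphamide rats and -1.998, -1.79 and -1.43 in saline rats in round spermatids. In pachytene spermatocytes it had -0.50, -0.46, -0.37, -0.34 and -0.13 in cyclophosphamide rats and -0.66, -0.55, -0.54, -0.46 and -0.20 in saline rats. All round spermatid arrays were below all pachytene arrays on this probe, so the Srsf1 probes separated the cell types in opposite directions, with log2 differences of -1.53 after cyclophosphamide and -1.28 after saline on this probe. The ratio of this probe to the chosen one was 7.39-fold lower in round spermatids after cyclophosphamide and 5.55-fold lower after saline (two-sided exact permutation test, p = 0.004329 each). With the mean over both probes the Srsf1 difference was -0.09 after cyclophosphamide (adjusted p = 0.422) and -0.04 after saline (adjusted p = 0.722), so the direction for the gene is not settled.

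The other pairs that reached the smallest exact p in both treatments differed in size, and the Hnrnpab pair also in sign after cyclophosphamide. The Hnrnpa1 probes, which did not reach it, had opposite signs under both treatments, as given above. Sf3a1, an SF3A subunit that contacts U1, had saline log2 differences of -0.31 on its chosen probe and -2.24 on the other. Hnrnph1 had -2.25 on its chosen probe and -0.42 on the other (limma, adjusted p = 0.00995). After cyclophosphamide Hnrnph1 had -2.33 on the chosen probe and -0.25 on the other, which did not pass (limma, adjusted p = 0.112). In saline rats Hnrnpk had -1.03 and -2.07. Hnrnpa3 had -0.41 and, on probe A_64_P154292 of the same accession, -1.93. For Hnrnpab the chosen probe showed 0.04 and the other rose by 0.79. After cyclophosphamide the chosen Hnrnpab probe was at -0.20, which did not pass, and the other rose by 0.89. The other Sf3b1 probe was not well above background on any round spermatid array, so its ratio is only a bound and its test is not counted. Within-array ratios show unequal change of the probes, and the transcript parts they match were not analysed here.

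**Figure D3:**
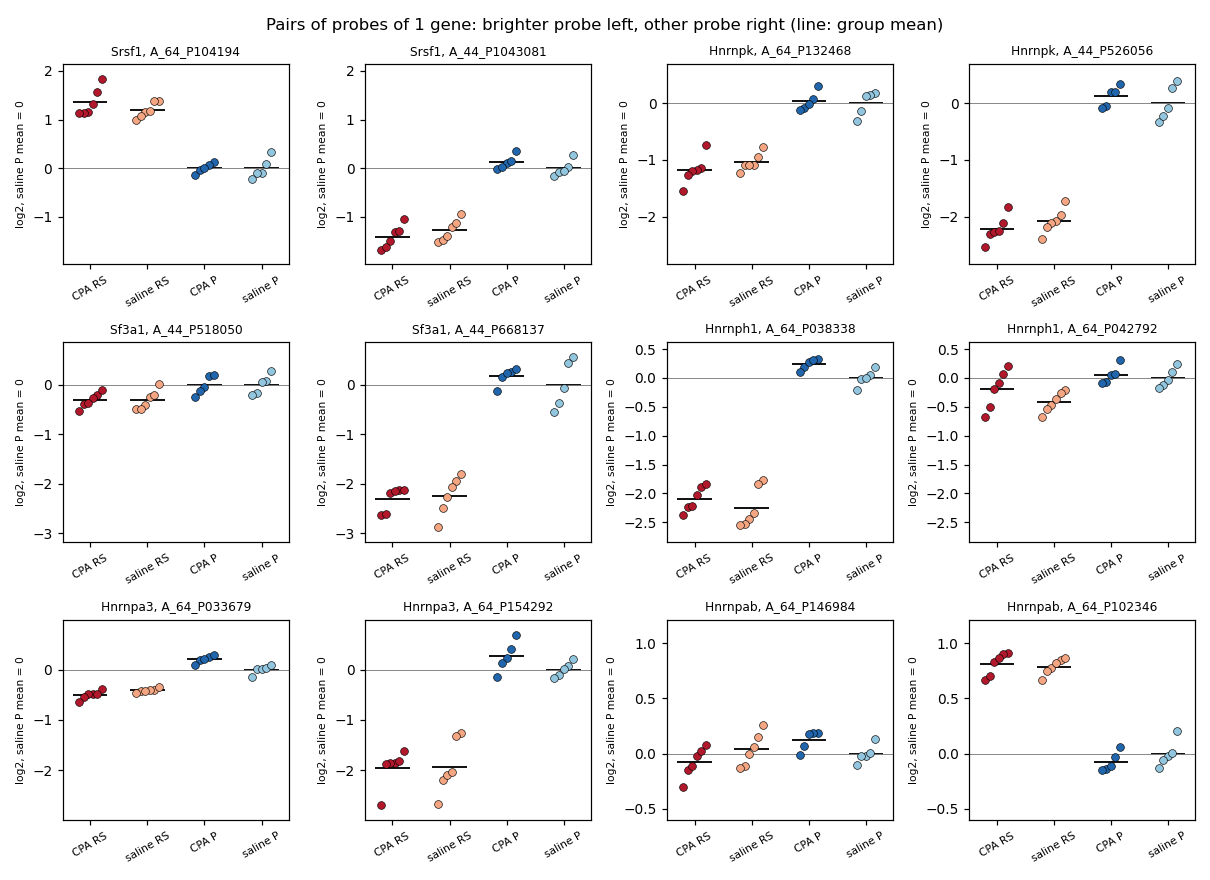
Log2 level on each array of probe pairs of 6 genes, each probe shifted so that its saline pachytene mean is 0, with the chosen (brightest) probe left and the other right in each pair. Points are arrays and lines group means of cyclophosphamide (CPA) or saline round spermatids (RS) and pachytene spermatocytes (P). The Srsf1 probes move in opposite directions, and the other probes of Sf3a1, Hnrnpk and Hnrnpa3 show larger falls than the chosen ones.

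Other splicing genes were counted in lists chosen by function. Beside them, 40.3% of all tested genes were lower and 38.8% higher after cyclophosphamide, and 37% and 38.2% after saline. Of 23 tested further U2 and U4/U6.U5 proteins, 19 were lower and 2 higher in round spermatids after cyclophosphamide, and 18 were lower and 2 higher after saline. Of 19 exon junction complex and SR-related genes, 16 were lower and 2 higher after cyclophosphamide, and 14 and 2 after saline. Tra2a, an SR-related splicing activator, differed by -3.30 and -2.91 on the log2 scale. Ncbp2, the cap-binding subunit, was higher by 1.13 and 1.17. The list of 27 Prp19 complex and activated spliceosome genes had 19 lower and 5 higher after cyclophosphamide, and 17 and 5 after saline, with Rbmx2 higher by 2.69 and 2.57.

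Among 26 Lsm and snRNP assembly genes, 15 were lower under either treatment, while 5 were higher after cyclophosphamide and 6 after saline. Prmt5, which methylates Sm proteins, differed by -3.57 and -3.15, and Gemin2, which holds the Sm proteins before assembly, by -2.52 and -2.40. Gemin8, another part of the SMN complex, was higher by 2.23 and 1.92. Of 5 Snrnp genes, 3 were lower and 1 higher in each comparison. Of 44 other splicing regulators 26 were lower in each, with 12 higher after cyclophosphamide and 11 after saline. The shares of all tested genes were 40.3% lower and 38.8% higher after cyclophosphamide, and 37% and 38.2% after saline.

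Of 7 tested kinases that phosphorylate SR proteins, 4 were higher and 2 lower after cyclophosphamide, beside 38.8% and 40.3% of all tested genes, and 3 were higher and 2 lower after saline, beside 38.2% and 37%. Clk3 was higher by 1.47 after cyclophosphamide and 1.38 after saline, and Clk2 by 1.61 and 1.302. Srpk2 differed by -2.16 and -1.90, and Clk1 by -1.40 and -1.42. With 7 genes tested, no balance is read from these counts.

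**Figure D4:**
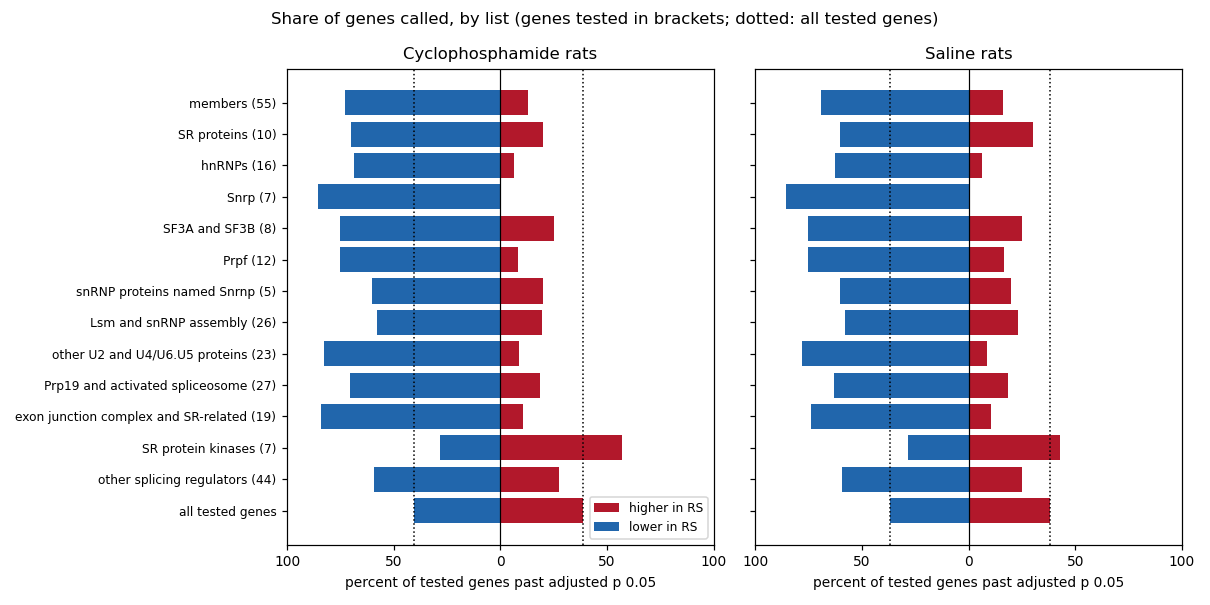
Percent of the tested genes of each list that were higher (right, red) or lower (left, blue) in round spermatids (RS) at an adjusted p of 0.05, in cyclophosphamide rats (left panel) and saline rats (right panel), with the number tested in brackets. Members are the 55 genes, and dotted lines mark all tested genes (38.8% and 40.3%, then 38.2% and 37%). The bar to the left passes the dotted line for every list except that of the 7 SR protein kinases, of which 2 were lower.

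Chronic cyclophosphamide moved none of the 55 genes past the threshold in either cell type. In pachytene spermatocytes no gene of 18450 tested passed (0%) by limma, and at an unadjusted p under 0.05 there were 353 higher (1.91%) and 982 lower (5.32%). Of the 55 genes, 38 were above 0 and 17 below, against 57.1% and 42.9% of all tested genes, with a median log2 difference, cyclophosphamide minus saline, of 0.09, against 0.03 for all tested genes. Only Hnrnpa3 (higher) and Sf3b4 (lower) had an unadjusted p under 0.05. In round spermatids no gene of 18843 passed (0%), with 363 higher (1.93%) and 265 lower (1.41%) at an unadjusted p under 0.05. There 12 of 54 tested genes were above 0 and 42 below, against 47.3% and 52.7% of all tested genes, with a median of -0.10, against -0.01 for all.

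Hnrnpa3, a relative of Hnrnpa1, had pachytene log2 levels of 4.26, 4.35, 4.38, 4.41 and 4.46 after cyclophosphamide, against 4.02, 4.17, 4.18, 4.20 and 4.25 after saline. The groups did not overlap, as for Sf3a3 among the 55 genes and 0.417% of all tested genes in the higher direction. The difference was 0.21 ± 0.08 (SE; unadjusted p = 0.0155, limma adjusted p = 0.686). Sf3b4 had -0.69, -0.55, -0.51, -0.50 and -0.26 after cyclophosphamide, against -0.34, -0.30, -0.29, -0.27 and 0.08 after saline, a difference of -0.28 ± 0.11 (limma adjusted p = 0.686). The groups overlapped by 1 array of cyclophosphamide.

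By unadjusted p, Hnrnpdl and Srsf10 came next among the positive differences, and U2af1l4 and Sf3a2 among the negative ones. Hnrnpdl, a paralogue of Hnrnpd, had -0.31, -0.31, -0.29, -0.24 and -0.09 after cyclophosphamide, against -0.79, -0.48, -0.41, -0.33 and -0.28 after saline. Srsf10 had 1.47, 1.53, 1.76, 1.91 and 1.94 after cyclophosphamide, against 1.36, 1.51, 1.51, 1.59 and 1.75 after saline. Their differences were 0.21 ± 0.11 and 0.18 ± 0.10 (SE), and the treatments overlapped for both. The pachytene values of U2af1l4 and Sf3a2, given above, differed by -0.12 ± 0.10 and -0.13 ± 0.13 (SE). No adjusted p of the 6 genes was below 0.686 (limma).

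Germ cell markers also differed on the same pachytene arrays. All 13 round spermatid markers were below 0 in cyclophosphamide against saline pachytene samples, 8 of them at an unadjusted p under 0.05, with a median log2 difference of -0.49 and none past the adjusted threshold. Of 13 pachytene markers, 12 were above 0, with a median of 0.18, and all 9 tested macrophage markers were below 0. Of the 6 genes named above, Hnrnpa3 was lower, and Sf3b4, U2af1l4 and Sf3a2 higher, in round spermatids than in pachytene spermatocytes. Srsf10, with a positive drug difference, was also higher in round spermatids after saline (0.25) and did not pass after cyclophosphamide. Hnrnpdl passed in neither cell type comparison, at -0.13 after cyclophosphamide and 0.05 after saline. The part of the marker differences in the drug values was not tested.

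In round spermatids, Prpf38b, a protein related to a yeast tri-snRNP factor, had levels (lowest, median, highest) of -5.89, -5.24 and -3.61 after cyclophosphamide, against -5.16, -3.83 and -3.55 after saline. The groups overlapped, and the difference was -0.89 ± 0.34 (SE; unadjusted p = 0.0143, limma adjusted p = 0.9999). It was the only one of the 54 tested genes with an unadjusted p under 0.05. Treatments did not overlap for 0.0425% of all tested genes in the lower direction and 0.149% in the higher one, and for none of the 54. The other probe of Prpf38b had a difference of -0.07. Hnrnpf and Prpf4 followed by unadjusted p among the negative differences. Prpf4, a protein of the U4/U6 particle, had -1.91, -1.73 and -1.51 after cyclophosphamide, against -1.77, -1.67 and -1.12 after saline. Its difference was -0.19 ± 0.12 and that of Hnrnpf, with the values given above, -0.25 ± 0.12 (SE), with overlap between treatments for both. Sf3b4, Srsf1 and Hnrnph1 had the smallest unadjusted p among the positive differences, at 0.16 ± 0.10, 0.16 ± 0.13 and 0.15 ± 0.14 (SE). Snrpf was not tested there, being below background.

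**Figure D5:**
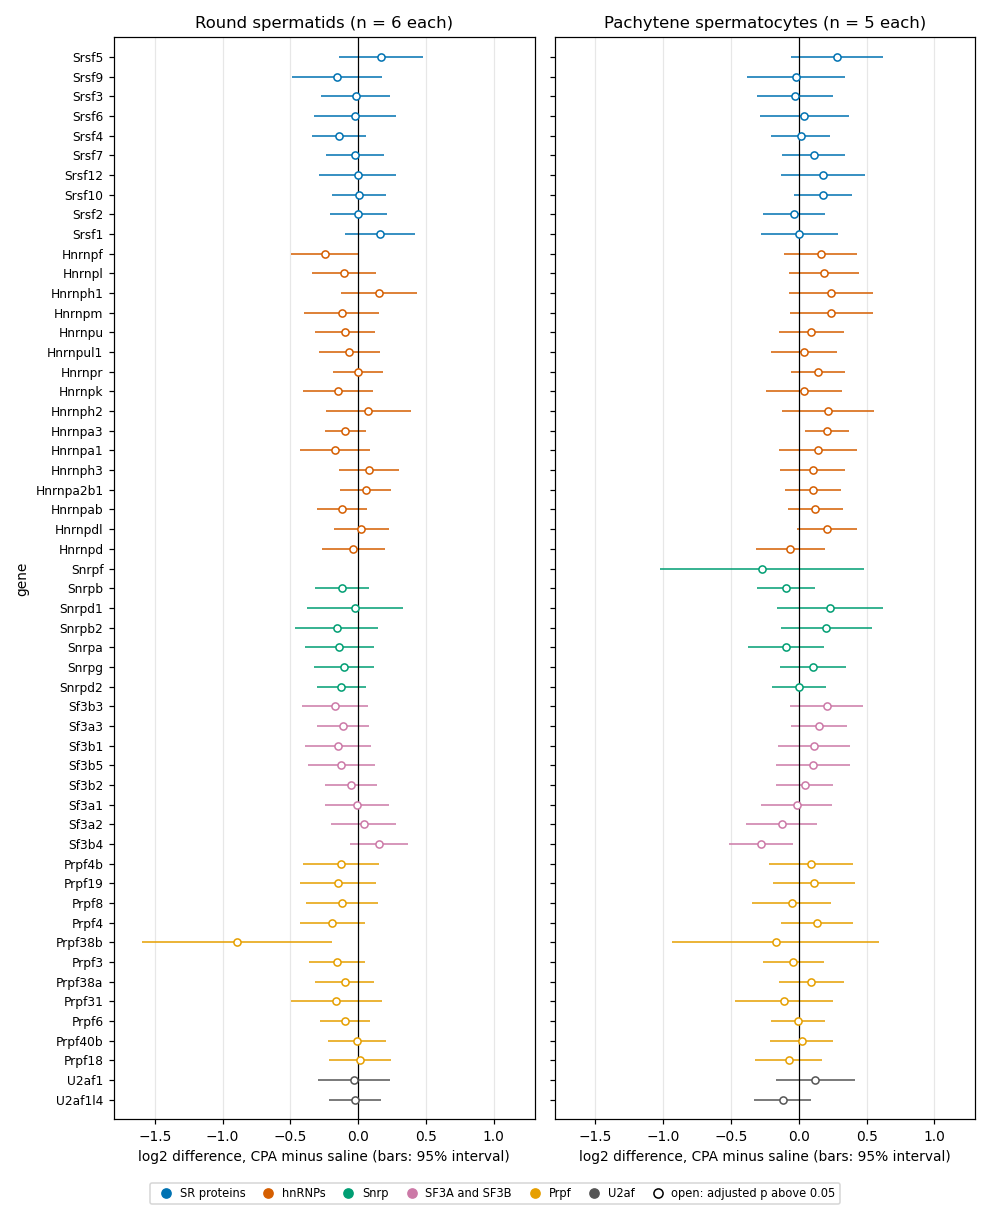
Log2 difference, cyclophosphamide (CPA) minus saline, of the genes, 1 of the 55 left out, in round spermatids (left) and pachytene spermatocytes (right). Points are limma estimates, bars 95% intervals, open points did not pass an adjusted p of 0.05, and Snrpf was not tested in round spermatids. No point is filled, and the widest intervals are those of the dim Prpf38b and Snrpf.

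On each array, the median deviation of the 55 genes from the saline mean overlapped between treatments in both cell types. It was -0.15 to 0.03 in cyclophosphamide round spermatids, against -0.07 to 0.07 in saline ones, and 0.04 to 0.12 in cyclophosphamide pachytene spermatocytes, against -0.07 to 0.09 in saline ones. The median in cyclophosphamide minus saline round spermatids was -0.10 over all arrays, -0.09 within slide 1 and -0.01 within slide 2. In pachytene spermatocytes it was 0.09 over all arrays and 0.06, 0.11, 0.14 and 0.08 within slides 1 to 4. On each slide at least 1 of the treatments had only 1 pachytene array, so these values do not stand as repeats of the all-array value. The difference between the drug effects, round spermatids minus pachytene spermatocytes, was tested directly, and 1 of 19643 genes passed (0.00509%), which is not among the 55. Of the 55, 10 were above 0 and 45 below, against 44.8% and 55.2% of all tested genes, with a median of -0.14, against -0.04 for all. Over all tested genes 5.06% were positive and 2.56% negative at an unadjusted p under 0.05. Of the 55, Sf3b4 was positive at 0.43 ± 0.15 and Hnrnpf, Sf3b3 and Hnrnpa3 were negative at -0.41 ± 0.18, -0.37 ± 0.18 and -0.30 ± 0.11 (SE; limma adjusted p = 0.637 each).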

How the data were processed

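Total RNA of 22 germ cell samples was labelled with Cy3 and hybridised to one-colour Agilent arrays. The deposited scanner files give intensity per spot, per the file headers: gProcessedSignal is background-subtracted by Agilent Feature Extraction, whose version is 10.7.3.1 per the file headers and 11.5.1.1 per the submitters' processing notes. The value table that the authors deposited is on a log2 scale and served as an alternative.

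For each array, spots of a probe were averaged without control spots and outlier flags, and log2 intensity minus the array's 75th percentile was taken. RefSeq symbols were found for 17998 of 30367 probes (59.3%) through their accessions. The brightest probe with a value on every array stood for a gene. A gene entered a comparison if at least 1 of its groups had it well above background (over 0.5 of its spots) on all arrays but at most 1. limma 3.58.1 in R 4.3.3 (lmFit, eBayes) fitted 4 group means over all 22 arrays, and p-values were adjusted over all tested genes of a comparison by Benjamini-Hochberg, with a threshold of 0.05. Intervals are 95% intervals, and the number of arrays limits the precision. Promoters and names came from RefSeq (GRCr8).

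Members and lists were chosen with earlier results of these data known. Values on every array are given for up to 3 genes per family and direction by saline difference, and 3 per drug comparison and direction by unadjusted p. Alternatives were quantile normalization, normexp, a stricter and no filter, other probe rules, the value table, slide and sample number as blocks, within-slide fits and leaving out each sample. The block of sample number put samples of equal number and treatment together, with suffixes ignored. The normexp alternative used median spot signals, because the mean signal column was not in the files used here. The scripts were tested on simulated data. Samples with the same number in both cell types had deviations correlated at 0.003, 0.162 and 0.124 after cyclophosphamide. After saline the correlations were -0.009, -0.087 and 0.378. With no samples of different numbers set beside them, they cannot decide whether equal numbers are the same rat. The labels do not say so either, and the numbers were not taken as pairs. Values of 1 member are not reported here singly, and it is kept in the counts and medians.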

Additional observations from a re-analysis of the deposited data

Results flagged for a closer look

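Among 112 groups of samples tested for an array far from the others, 6 stood out, and chance flags about 1 in 20. In cyclophosphamide round spermatids, Prpf19 was at -5.925 on the log2 scale in sample 14, with the other 5 between -5.49 and -5.33, and Sf3b3 was at -1.390 in sample 25, with the others between -1.87 and -1.69. In saline round spermatids, Sf3a3 was at 1.753 in sample 16, with the others between 2.01 and 2.06. In cyclophosphamide pachytene spermatocytes, Sf3a3 was at 3.166 in sample 29, with the others between 2.90 and 2.95. In saline pachytene spermatocytes, Sf3b4 was at 0.084 in sample 16, with the others between -0.34 and -0.27, and Srsf5 was at 2.291 in sample 13, with the others between 2.59 and 2.64.

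For Hnrnpf and Sf3b4, every cyclophosphamide array of one cell type lay above that cell type's saline mean and every one of the other below its own. The difference between the drug effects, round spermatids minus pachytene spermatocytes, was -0.407 for Hnrnpf and 0.434 for Sf3b4, and limma's test of it gave an adjusted p of 0.637 for each, so neither difference passed.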

How the results depend on the processing

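The counts of genes past the threshold between cell types were 45 to 47 after cyclophosphamide and 44 to 47 after saline when each sample was left out in turn. Over the other settings they were at most 51 (quantile normalization) after cyclophosphamide and at most 47 after saline. The drug comparisons had 0 genes of the set past the threshold in limma under every setting run. Leaving out a sample gave drug medians of 0.0583 to 0.1044 in pachytene spermatocytes, -0.1058 to -0.0595 in round spermatids and -0.1700 to -0.1185 for their difference. The median in round spermatids was -0.0073 within slide 2, and the cause was not tested. With the mean over probes, Srsf1 was -0.0916 after cyclophosphamide (adjusted p = 0.42) and -0.0422 after saline (adjusted p = 0.72), where its probes have opposite signs. With the block of sample number, 47 genes passed in each cell type comparison and 0 in each drug comparison. The drug medians were then 0.0899, -0.0981 and -0.1371 in pachytene spermatocytes, round spermatids and their difference. Among single genes, Sf3a2 did not pass under quantile normalization after saline (0.2507). Within slide 1 its difference was 0.578 after cyclophosphamide and 0.594 after saline, against 0.68 and 0.51 over all arrays. Sf3b1 after saline was at -0.43 and -0.59 within slides 1 and 2, against -0.53. Slides 1 and 2 hold 1 pachytene array of each treatment, so no cell type count is given within them. Probes below background limit Snrpf, Prpf19 and Prpf38b.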
